A study of Mus musculus with 10 samples.

Results

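The genes described here encode proteins of the lipid droplet surface and the enzymes and regulators that release fatty acids from it. They were taken by symbol from the normalised read counts of 10 mouse hepatic stellate cell (HSC) libraries and are *Plin2*, *Plin3*, *Plin4*, *Plin5*, *Cidec*, *Hilpda*, *G0s2*, *Abhd5*, *Pnpla2* and *Mgll*, 10 of the 25233 genes with a symbol. Each matched 1 entry. RNA sequencing was performed on 5 preparations labelled hypHSC, the hypertrophied stellate cells, and 5 labelled qHSC, the quiescent ones, and the comparison of both asks how stellate cells differ once they have become hypertrophied. All came from male C57BL/6J mice. The hypHSCs were prepared after feeding the CDAHFD (high in fat, without choline and low in methionine, a diet that leads to steatohepatitis with fibrosis) for 13 weeks at an age of 19 weeks (hypHSC 1 and 2) or for 12 weeks at an age of 18 weeks (hypHSC 3, 4 and 5). The qHSCs were prepared from animals kept on standard diet, at an age of 36 weeks (qHSC 1, 2 and 5) or 34 weeks (qHSC 3 and 4). Cells were isolated by enzymatic digestion and density gradient and sorted on their own fluorescence, in the green range for hypHSCs and in the blue range for qHSCs. Diet, age, strength of digestion and sorting gate differed together between the groups, so their effects cannot be told apart, and n counts preparations, since the mouse behind each library is not given.

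A lipid droplet is a core of triglycerides and esters of sterols or retinol under a single layer of phospholipids, and quiescent HSCs hold the retinyl esters of the liver in such droplets. Perilipins coat the droplet and limit the access of lipases, and CIDEC lets droplets exchange lipid and grow. Triglycerides are first cleaved by PNPLA2 (adipose triglyceride lipase), which is activated by ABHD5 and inhibited by G0S2 and HILPDA, and MGLL cleaves the last fatty acid from the glycerol.

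The libraries held 30534719 to 43283589 reads on genes with a symbol in the hypHSC group, and 35640104 to 47317028 in the qHSC group. Mitochondrial reads made up 2.21% to 12.8% of the hypHSC libraries and 1.25% to 1.61% of the qHSC libraries, and reads on entries without a symbol 10.8% to 29.1% and 8.98% to 10.2%, without overlap in either case. Their part in the group differences was not tested. The summed markers of quiescent HSCs, led by *Ecm1*, *Colec11* and *Rgs5*, lay between 803993 and 1466020 normalised counts in qHSCs and between 7942 and 21580.4 in hypHSCs, and 10 of the 10 were lower. The summed macrophage markers, led by *Lyz2*, *Cd68* and *C1qb*, lay between 1000770 and 1364540 counts in hypHSCs and between 4547 and 112679 in qHSCs, where the highest sums were those of qHSC 4 and qHSC 1, and 10 of the 12 were higher in hypHSCs. The libraries labelled hypHSC thus held more RNA of these macrophage markers than of the quiescent HSC markers, with a mean of 845672 counts for *Lyz2* alone. By these lists the data went against their label, but the HSC list was drawn up for the quiescent state. It also holds *Des* and *Pdgfrb*, with log2 fold changes of -4.89 and -2.87. The paper names desmin and *Pdgfr* among typical HSC genes. The paper reports high purity of sorted hypHSCs by droplet fluorescence, and desmin, cRBP1 and αSMA protein in them. It also lists *Acta2* and the collagen genes *Col1a1*, *Col1a2* and *Col3a1* as unregulated. All 10 HSC markers had reads in hypHSCs, *Gfap* being at 0 in 2 of these libraries. Of the 5 cholangiocyte markers, 4 were tested and were higher in hypHSCs (sums of 161343 to 336684 against 30.8 to 386.56), and nearly all of those counts came from *Spp1*, which macrophages also make, followed by *Sox9* and *Krt19*. The 3 neutrophil markers tested, *S100a8*, *Csf3r* and *S100a9*, were also higher (sums of 1788 to 7753 against 10.49 to 391.9). *Ly6g* and *Mpo*, also on this list, were too low to be tested and were each at 0 in 4 hypHSC libraries. They had at most 9 and 6 reads in a hypHSC library and at most 6 and 9 in a qHSC library. Of the 12 hepatocyte markers, led by *Apoa1*, *Cyp2e1* and *Serpina1a*, 2 were lower and none was higher, with overlapping sums of 9817 to 62624 and 19909.6 to 65319. Of the 6 endothelial markers tested, 1 was higher and 2 were lower (411 to 790 against 992 to 2373; the most abundant were *Clec4g*, *Stab2* and *Tek*). The 6 adipocyte markers, of which *Cfd*, *Adipoq* and *Tshr* had the most reads, summed to at most 61.08 counts, and the defining *Lep* and *Plin1* had no read in any library. In bulk samples such as these, a change in the share of a cell type cannot be told apart from a change in RNA per cell, and the part of these markers in the results that follow was not tested.

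**Figure D1:**
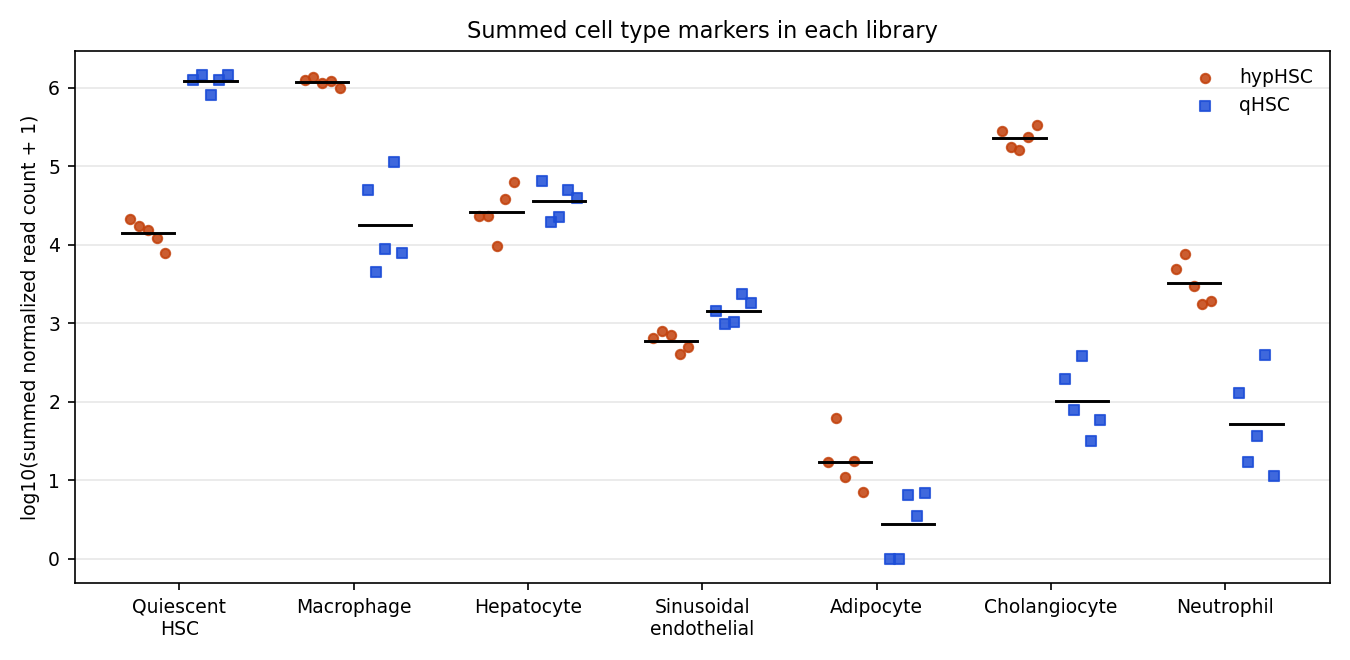
Summed normalised read counts of 7 cell type marker lists, as log10(sum + 1), in each library (circles, hypHSC; squares, qHSC; black lines, group means; n = 5 per group). The quiescent HSC sums are lower and the macrophage, cholangiocyte and neutrophil sums higher in every hypHSC library, while the hepatocyte sums overlap.

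A normalised count is the number of reads of a gene divided by the size factor of its library. Genes with at least 10 normalised counts in at least 5 libraries were tested (14630 genes), and a differentially expressed gene (DEG) had a log2 fold change of at least 1 in size and a limma p of at most 0.05 after Benjamini-Hochberg adjustment. Of all genes tested, 17.8% were DEGs with higher and 21.7% with lower values in hypHSCs. Every hypHSC library lay above every qHSC library for 17.6% of all genes and below for 22.0%. Of the 10 lipid droplet genes, 9 were tested: *Plin2*, *Hilpda* and *Abhd5* were higher, *G0s2* and *Mgll* were lower, and *Plin3*, *Plin4*, *Plin5* and *Pnpla2* were not DEGs. The 5 DEGs were also the 5 genes whose groups did not overlap. *Cidec* had at least 10 counts in 4 libraries and was not tested.

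**Figure D2:**
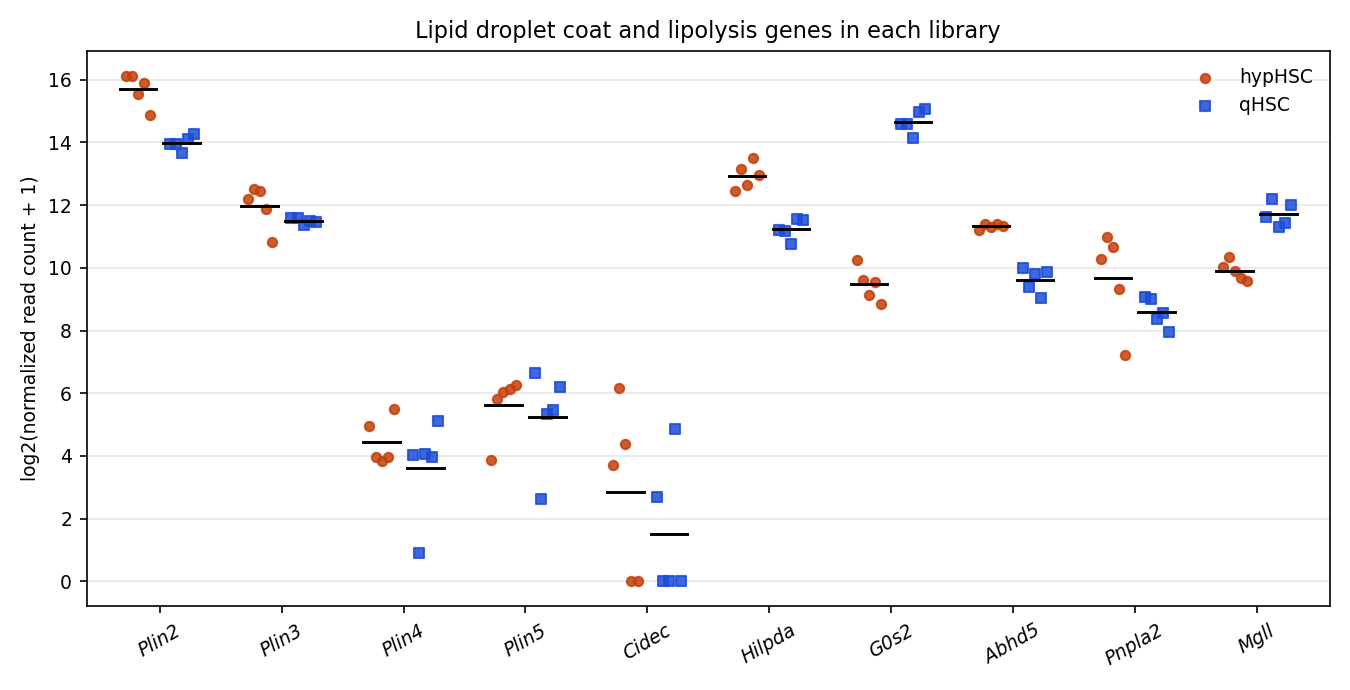
Normalised read counts of the 10 lipid droplet coat and lipolysis genes, as log2(count + 1), in each of the 5 hypHSC (circles) and 5 qHSC (squares) libraries, with group means as black lines. The groups do not overlap for *Plin2*, *Hilpda*, *G0s2*, *Abhd5* and *Mgll*, and overlap for the other 5 genes.

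*Plin2* (chromosome 4, 86574802 to 86588258 of mm39, reverse strand) encodes the perilipin found on the droplets of most cell types. It had 70769.7, 71223, 47689, 61328 and 29846 normalised counts in hypHSC 1 to 5 and 15982, 15708, 13019.6, 17521 and 19616 in qHSC 1 to 5. All hypHSC values lay above all qHSC values, and hypHSC 5 was the lowest of its group. The mean was 56171 ± 17545 (SD, n = 5) against 16369 ± 2433 (SD, n = 5), 3.43-fold higher. The log2 fold change was 1.72 ± 0.25 (SE; limma, adjusted p = 0.000217). Within hypHSCs, both libraries from 13 weeks of diet (70769.7 and 71223) lay above the 3 from 12 weeks (29846 to 61328). The same 2 libraries also had more mitochondrial reads (12.8% and 7.27%, against 2.21% to 3.42% in hypHSC 3 to 5) and more reads outside genes with a symbol (29.1% and 20.1%, against 10.8% to 13.2%), whose part was not tested. With hypHSC 3 to 5 alone the log2 fold change was 1.45 (limma, adjusted p = 0.00202). Of all reads assigned to genes, *Plin2* took between 0.0624% and 0.175% in a hypHSC library and between 0.0424% and 0.0553% in a qHSC library. A *Plin2* pseudogene, *Gm12551* (chromosome 4, 86545094 to 86550458), carried 1.43% to 2.1% as many counts as *Plin2* in each library, and reads of both cannot be told apart with certainty.

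*Plin3*, a perilipin that moves between cytosol and nascent droplets, lies on chromosome 17 (56584476 to 56597513, reverse strand). It had 4716, 5891, 5561, 3761 and 1810.4 counts in hypHSC 1 to 5 and 3053, 3113, 2624, 2874 and 2791 in qHSC 1 to 5. In 4 hypHSC libraries it lay above all qHSCs, whereas hypHSC 5 lay below all of them. The log2 fold change was 0.48 ± 0.29 (SE), with a 95% interval of -0.15 to 1.11 (limma, adjusted p = 0.191). Without hypHSC 5 it was 0.77 (limma, adjusted p = 0.00159), still under the fold threshold. The spread differed as well, with a coefficient of variation of 37.7% in hypHSCs and 6.86% in qHSCs.

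*Plin4* and *Plin5*, the perilipins of adipocytes and of oxidative tissues such as heart and muscle, were close to the limit of detection. *Plin4* (chromosome 17, 56407587 to 56416782, reverse strand) had 29.65, 14.49, 13.31, 14.69 and 43.86 counts in hypHSC 1 to 5 and 15.39, 0.85, 15.75, 14.55 and 33.72 in qHSC 1 to 5, from 1 to 45 reads per library. The groups overlapped, and its log2 fold change of 0.82 had a 95% interval of -0.89 to 2.54 (limma, adjusted p = 0.408), and it was 0.14 without qHSC 2, which held 1 read. Of its exon bases, 35.1% were shared with *Hdgfl2* on the opposite strand, and the counting did not use strand. *Plin5* (chromosome 17, 56418601 to 56424548, reverse strand) had 13.48, 55.9, 64.86, 69.24 and 75.62 counts in hypHSC 1 to 5 and 98.65, 5.11, 39.36, 42.78 and 72.68 in qHSC 1 to 5. The highest and the lowest value both belonged to qHSCs, and the log2 fold change was 0.38 (95% interval, -1.33 to 2.08; limma, adjusted p = 0.714), turning to -0.28 without qHSC 2. A difference of either gene was not detectable at this depth and spread.

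*Cidec* (chromosome 6, 113401595 to 113412721, reverse strand) had 12.13, 71.43, 19.96, 0 and 0 counts in hypHSC 1 to 5 and 5.43, 0, 0, 28.24 and 0 in qHSC 1 to 5. It was thus without a read in 2 hypHSC and 3 qHSC libraries, where a count of 0 allows up to 3 reads, or 2.25 to 4.54 normalised counts depending on the library. The groups overlapped, and 12.9% of its exon bases were shared with an opposite-strand gene.

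*Hilpda* (chromosome 6, 29272487 to 29275448, forward strand), the hypoxia-inducible inhibitor of PNPLA2, had 5553, 9112, 6324, 11729 and 8045 counts in hypHSC 1 to 5 and 2368, 2307, 1748, 3039 and 2978 in qHSC 1 to 5. The lowest hypHSC library held more than the highest qHSC library. The means were 8153 ± 2440.45 and 2488 ± 534 (SD, n = 5 each), a 3.28-fold difference. The log2 fold change was 1.69 ± 0.23 (SE; limma, adjusted p = 0.000136). Unlike for *Plin2*, hypHSC 5 was not the lowest here, and the values of the 13-week libraries (5553 and 9112) lay within the range of the 12-week ones (6324 to 11729) or below it.

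*G0s2* (chromosome 1, 192954468 to 192955496, reverse strand), the other inhibitor of PNPLA2, showed the opposite direction and the largest difference of the 9 genes tested. It had 1229, 789, 561, 748 and 457 counts in hypHSC 1 to 5 and 24523, 24712, 18093, 32016 and 34124 in qHSC 1 to 5. Every hypHSC library lay far below every qHSC library. The means were 757 ± 297 and 26694 ± 6445 (SD, n = 5 each), 35.3-fold lower in hypHSCs. On the log2 scale, *G0s2* fell by 5.19 ± 0.27 (SE; limma, adjusted p = 1.61e-07). The markers of quiescent HSCs, whose median log2 fold change was -6.01, moved in the same direction in the same libraries, and their part in this difference was not tested.

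*Abhd5* (chromosome 9, 122180681 to 122210588, forward strand), the coactivator of PNPLA2, had 2343, 2671, 2549.65, 2718 and 2604 counts in hypHSC 1 to 5 and 1017, 665, 898, 529 and 924 in qHSC 1 to 5. The groups were separate, and the hypHSC libraries were close to each other, with a coefficient of variation of 5.65% against 25.1% in qHSCs. The means were 2577 ± 146 and 807 ± 202 (SD, n = 5 each), 3.19-fold higher in hypHSCs, with a log2 fold change of 1.71 ± 0.20 (SE; limma, adjusted p = 3.6e-05). Of its exon bases, 17.6% were shared with opposite-strand genes.

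*Pnpla2* itself (chromosome 7, 141035101 to 141040656, forward strand) was the most variable of the abundant genes. It had 1234, 2013, 1617, 642 and 147 counts in hypHSC 1 to 5 and 531, 514, 331, 379 and 247 in qHSC 1 to 5. In hypHSC 1 to 4 it lay above all qHSCs, and in hypHSC 5, with 97 reads, below all of them. The log2 fold change was 1.10 ± 0.62 (SE), with a 95% interval of -0.26 to 2.45 (limma, adjusted p = 0.165). Without hypHSC 5 it was 1.72 (limma, adjusted p = 0.00171). On all 10 libraries DESeq2 and edgeR, run on the reads, called it higher, with log2 fold changes of 1.5 (adjusted p = 0.0148) and 1.54 (adjusted p = 0.0345). The call thus depended on hypHSC 5 and on the test. With the 3 hypHSCs from 12 weeks alone, hypHSC 5 among them, it was 0.47 (limma, adjusted p = 0.582). In hypHSC 5 *Plin2*, *Plin3*, *G0s2* and *Mgll* were also the lowest of their group, whereas *Hilpda* and *Abhd5* were not. Of the hypHSCs, this library had the highest summed hepatocyte (62624) and cholangiocyte (336684) markers. It also had the lowest sums of macrophage (1000770) and quiescent HSC (7942) markers, and the part of these sums was not tested.

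*Mgll* (chromosome 6, 88701394 to 88805342, forward strand), the monoglyceride lipase, had 1034, 1313, 950.5, 821 and 761 counts in hypHSC 1 to 5 and 3134, 4689.6, 2519, 2729.6 and 4073 in qHSC 1 to 5. The groups did not overlap. The means were 976 ± 217 and 3429 ± 923 (SD, n = 5 each), 3.51-fold lower in hypHSCs. On the log2 scale *Mgll* fell by 1.80 ± 0.22 (SE; limma, adjusted p = 6.04e-05).

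These fold changes depend on how the libraries are scaled, and the median log2 fold change of all genes was -0.20 with the deposited scaling and -1.12 when the libraries were scaled on *Hprt*, *Pgk1* and *Actb*. Relative to the median gene, *Plin2*, *Hilpda* and *Abhd5* were higher by 1.92, 1.89 and 1.91 with the first scaling and by 1.91, 1.87 and 1.90 with the second, and *G0s2* and *Mgll* lay at -4.99 and -1.60 with the first and at -5.00 and -1.61 with the second. Rescaling a library shifts all its genes alike, apart from the pseudocount. These distances from the median gene are thus nearly fixed by construction and do not test the scaling. Not set against the median gene, *Plin2*, *Hilpda* and *Abhd5* were higher by 0.78, 0.75 and 0.77 with the reference genes, which is also a relative scaling. They did not reach the fold threshold of a DEG, so 0 of the 10 genes were DEGs with higher values by limma (adjusted p of *Plin2* = 0.0101, *Hilpda* = 0.0562, *Abhd5* = 0.0399). With the deposited scaling 2602 genes of all tested were DEGs with higher and 3177 with lower values, against 2022 and 4225 with the same total per library and 1472 and 6990 with the reference genes. *Plin3*, *Plin4* and *Plin5*, which were not DEGs with either scaling, moved with the median, to -0.46, -0.01 and -0.52. Their distances above the median, 0.66, 1.11 and 0.60, are likewise nearly fixed by construction.

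Levels of different genes were compared as FPKM (fragments per unit of exon length and of library depth), with the exon length of the canonical transcript within each entry. In qHSCs *G0s2* was the most abundant with 959.6 ± 196 FPKM, followed by *Plin2* with 269 ± 28 and *Hilpda* with 67.3 ± 12.4 (SD, n = 5). These 3 did not overlap with each other. *Mgll* (28.3 ± 6.79) and *Plin3* (24.2 ± 1.82) came next and overlapped, as did *Abhd5* (7.83 ± 2.02) and *Pnpla2* (6.07 ± 1.9). *Plin5*, *Cidec* and *Plin4* stayed at or below 1.37 FPKM in each qHSC library. In hypHSCs *Plin2* ranked first with 734 ± 245 FPKM and *Hilpda* second with 172 ± 44.4, again without overlap. *Plin3* (29.4 ± 13), *G0s2* (21.6 ± 8.82), *Abhd5* (19.6 ± 2.09), *Pnpla2* (14 ± 9.74) and *Mgll* (6.42 ± 1.78) followed, each overlapping with the next. *G0s2* thus had rank 1 of the 10 in qHSCs and 4 in hypHSCs.

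**Figure D3:**
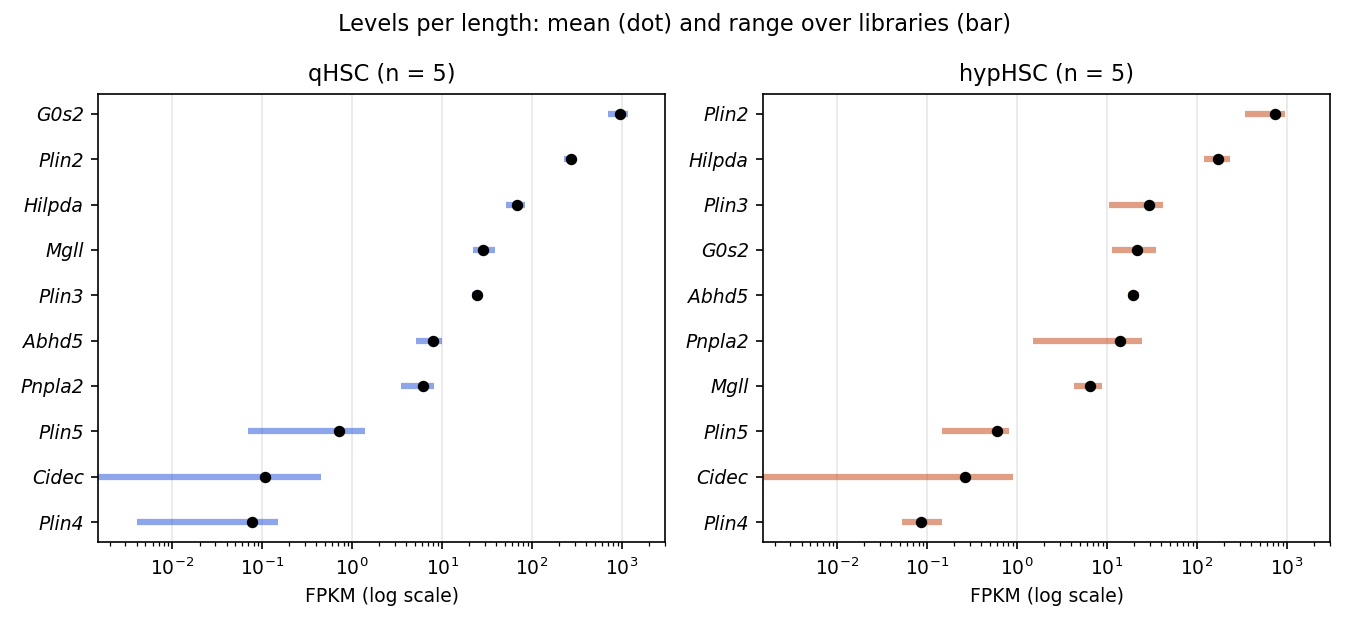
FPKM (log axis) of the 10 genes in qHSCs (left) and hypHSCs (right), ordered by mean (dots), with bars from the lowest to the highest of 5 libraries. Bars that reach the left edge include libraries at 0. *G0s2* leads in qHSCs and *Plin2* in hypHSCs, while *Plin5*, *Cidec* and *Plin4* are last in both.

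Among the perilipins other than *Plin1*, *Plin2* made up 96.1% ± 1.08 of the summed FPKM in hypHSCs (94.3% to 96.9%) and 91.4% ± 1.07 in qHSCs (90.5% to 93%; SD, n = 5 each). *Plin3* made up 3.77% ± 1.09 and 8.31% ± 1.09. *Plin4* and *Plin5* each stayed below 0.5% of the sum in every library. These values depend on the exon length: with all annotated exons of each entry, *Plin2* had 225 FPKM in hypHSCs and 82.5 in qHSCs and made up 93.2% ± 1.8 and 85.5% ± 1.67, and *Plin5* reached 1.1% in 1 library. The coat transcripts of both groups were therefore mostly those of *Plin2*, with *Plin3* second.

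Ratios of 2 genes within a library do not depend on the scaling of the libraries, and 8 of them were compared with an exact two-sided permutation test over all arrangements of 5 libraries against 5, which cannot give a p under 0.00794. The log2 ratio of *G0s2* over *Pnpla2*, inhibitor over lipase, was -0.01, -1.35, -1.52, 0.22 and 1.63 in hypHSC 1 to 5 and 5.53, 5.59, 5.77, 6.40 and 7.11 in qHSC 1 to 5. *G0s2* had 67.5 times the counts of *Pnpla2* in qHSCs and 0.867 times in hypHSCs (means on the log scale), and the difference of -6.28 held in all libraries (exact permutation p = 0.00794, adjusted over the 8 ratios 0.0212). *Mgll* over *Pnpla2* was -0.26, -0.62, -0.77, 0.36 and 2.37 in hypHSC 1 to 5 and between 2.56 and 4.04 in qHSCs, without overlap (difference -2.89, exact permutation p = 0.00794, adjusted 0.0212). *Hilpda* over *Pnpla2* ranged from 1.97 to 5.77 in hypHSCs and from 2.15 to 3.59 in qHSCs, and *Abhd5* over *Pnpla2* from 0.41 to 4.14 and from 0.37 to 1.90. Both overlapped and did not differ beyond the spread (differences 0.59 and 0.62, exact permutation p = 0.524 and 0.5, adjusted 0.599 for both), and both differences turned to -0.03 and -0.01 without hypHSC 5.

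Of the coat genes, *Plin3* over *Plin2* had a mean log2 ratio of -3.73 ± 0.40 in hypHSCs (-4.04 to -3.10) and of -2.49 ± 0.21 in qHSCs (-2.81 to -2.31; SD, n = 5 each). The groups did not overlap (difference -1.24, exact permutation p = 0.00794, adjusted 0.0212), so *Plin2* had 13.3 times the counts of *Plin3* in hypHSCs and 5.62 times in qHSCs. *Plin4*, *Plin5* and *Cidec* over *Plin2* overlapped between the groups (differences -0.90, -1.35 and -0.38, exact permutation p = 0.302, 0.183 and 0.802, adjusted 0.483, 0.365 and 0.802). Without qHSC 2 the difference for *Plin5* over *Plin2* was -1.99 (exact permutation, adjusted p = 0.0476).

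**Figure D4:**
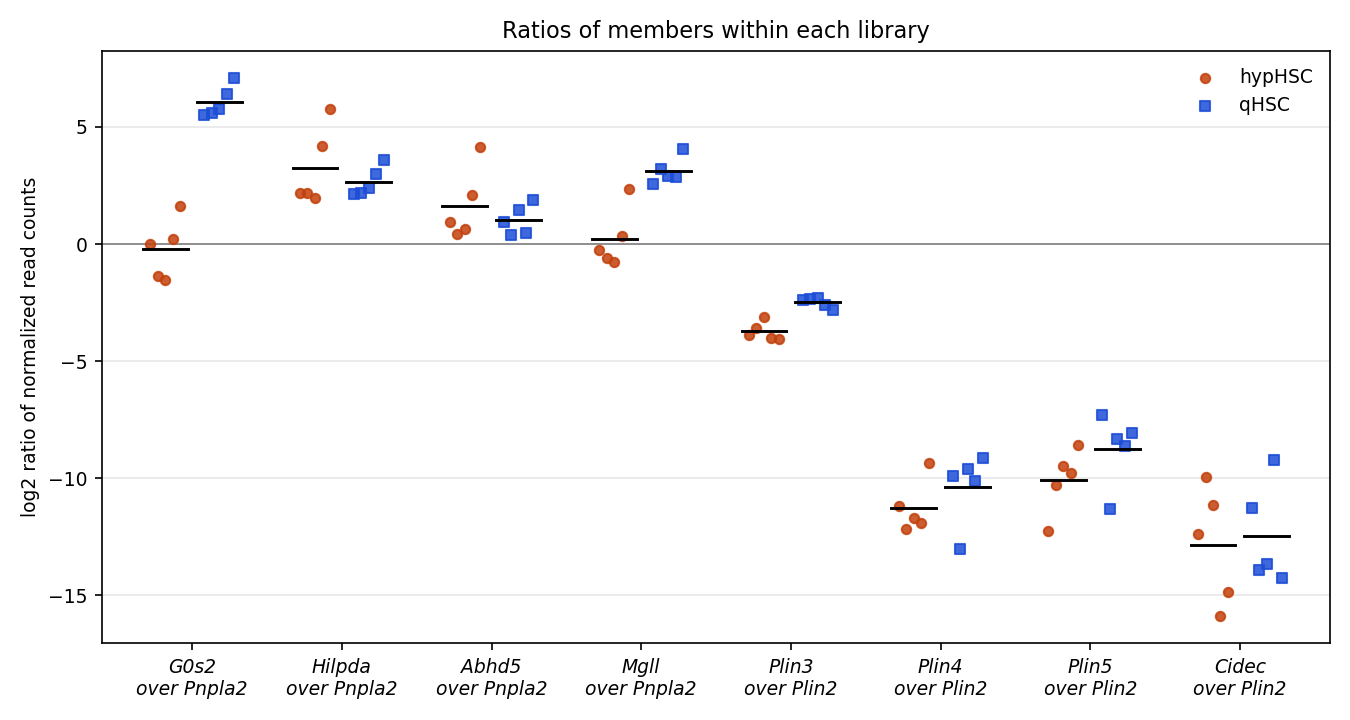
Log2 ratios of normalised counts of 8 gene pairs within each library (circles, hypHSC; squares, qHSC; black lines, group means; n = 5 per group). *G0s2* over *Pnpla2*, *Mgll* over *Pnpla2* and *Plin3* over *Plin2* are lower in every hypHSC library than in any qHSC library, and the other 5 ratios overlap.

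Of 44 other lipid droplet genes, 43 were matched (*Ldaf1* was not), 39 were tested, 7 were DEGs with higher values in hypHSCs and 8 with lower ones, beside 17.8% and 21.7% of all genes tested. Their median log2 fold change was -0.35, against -0.20 for all genes tested. *Plin1*, the perilipin of adipocytes, had no read in any library, and *Cidea* had reads in 1 hypHSC and 2 qHSC libraries. *Cideb*, the hepatocyte member of the CIDE family, had 1108 ± 1220 counts in hypHSCs and 556 ± 290 in qHSCs (SD, n = 5 each; limma, adjusted p = 0.591).

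Among the 13 other neutral lipases and hydrolases, 3 were higher and 3 were lower of 11 tested. *Nceh1*, which cleaves cholesterol esters, rose from 220 ± 159 to 14889 ± 1825 counts (SD, n = 5 each; log2 fold change 6.38, limma, adjusted p = 6.91e-07). *Lipa*, the acid lipase of lysosomes, rose from 6535 ± 1576 to 53000 ± 20150 (log2 fold change 2.95, limma, adjusted p = 1.78e-05). *Abhd12*, a lipase of lysophospholipids and monoglycerides, rose from 677 ± 242 to 8985 ± 1214 (log2 fold change 3.78, limma, adjusted p = 3.41e-07). In contrast, *Pnpla3*, a hydrolase of triglycerides and retinyl esters, was at 168 ± 30.8 counts in qHSCs and 10.7 ± 11.3 in hypHSCs (log2 fold change -4.89, limma, adjusted p = 0.00141). The carboxylesterases *Ces1f* and *Ces1g*, paralogs among which reads can be split, were lower as well (log2 fold changes -4.55 and -2.71), and *Lipe*, the hormone-sensitive lipase, stayed at 113 ± 108 and 91.8 ± 21 counts in hypHSCs and qHSCs (limma, adjusted p = 0.702).

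Of the 14 droplet formation genes tested, *Soat1*, which esterifies cholesterol, rose from 870 ± 176 to 20129 ± 6299 counts (SD, n = 5 each; log2 fold change 4.50, limma, adjusted p = 1.47e-07) and *Pcyt1a*, the key enzyme of phosphatidylcholine synthesis, from 565 ± 136 to 1259 ± 490 (log2 fold change 1.07, limma, adjusted p = 0.0155). *Fitm1* and *Fitm2*, which help droplets bud from the endoplasmic reticulum, were lower, at 10.5 ± 7.24 and 18.4 ± 16.5 counts in hypHSCs against 94.8 ± 43.7 and 65.7 ± 36 in qHSCs. *Dgat1* and *Dgat2*, the last enzymes of triglyceride synthesis, were not DEGs (log2 fold changes -0.81 and -1.37, limma, adjusted p = 0.338 and 0.134), nor were *Bscl2*, the seipin gene, *Soat2*, *Acsl3*, *Aup1* and *Faf2*. *Rab18*, *Spart* and *Lpcat1* were not DEGs either, but missed only the fold threshold. Their log2 fold changes were -0.90, -0.71 and 0.90 (limma, adjusted p = 0.000993, 0.0162 and 0.0455). Of the 7 other droplet proteins, *Hsd17b11* alone was a DEG and was higher (log2 fold change 1.60, limma, adjusted p = 0.0125), at 85.3 ± 30.9 counts against 28.5 ± 14.1. *Mettl7a1* missed only the fold threshold (log2 fold change -0.97, limma, adjusted p = 0.0156). The rises of *Nceh1*, *Lipa*, *Soat1* and *Abhd12* stood beside those of the macrophage markers in the same libraries, and the part of the latter was not tested.

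Of the 6 transcription factors known to control genes of this kind, *Pparg* was higher, with 923 ± 190 counts in hypHSCs and 10.3 ± 13 in qHSCs (SD, n = 5 each; log2 fold change 7.40, limma, adjusted p = 4.07e-05). *Ppara* (log2 fold change -2.04), *Rxra* (-1.77) and *Epas1*, which encodes HIF-2α (-5.36), were lower (limma, adjusted p = 0.018, 0.00409 and 0.00412). Their counts were 17.6 ± 18.3, 408 ± 221 and 155 ± 174 in hypHSCs, and 61.0 ± 27.3, 1213 ± 263 and 2750 ± 2070 in qHSCs. *Epas1* ranged from 651 to 5681 counts within qHSCs, and the 95% interval of its log2 fold change reached 2.71 to either side. *Hif1a*, at 592 ± 120 counts in hypHSCs and 559 ± 75.6 in qHSCs, and *Ppard* were not DEGs (limma, adjusted p = 0.784 and 0.192).

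**Figure D5:**
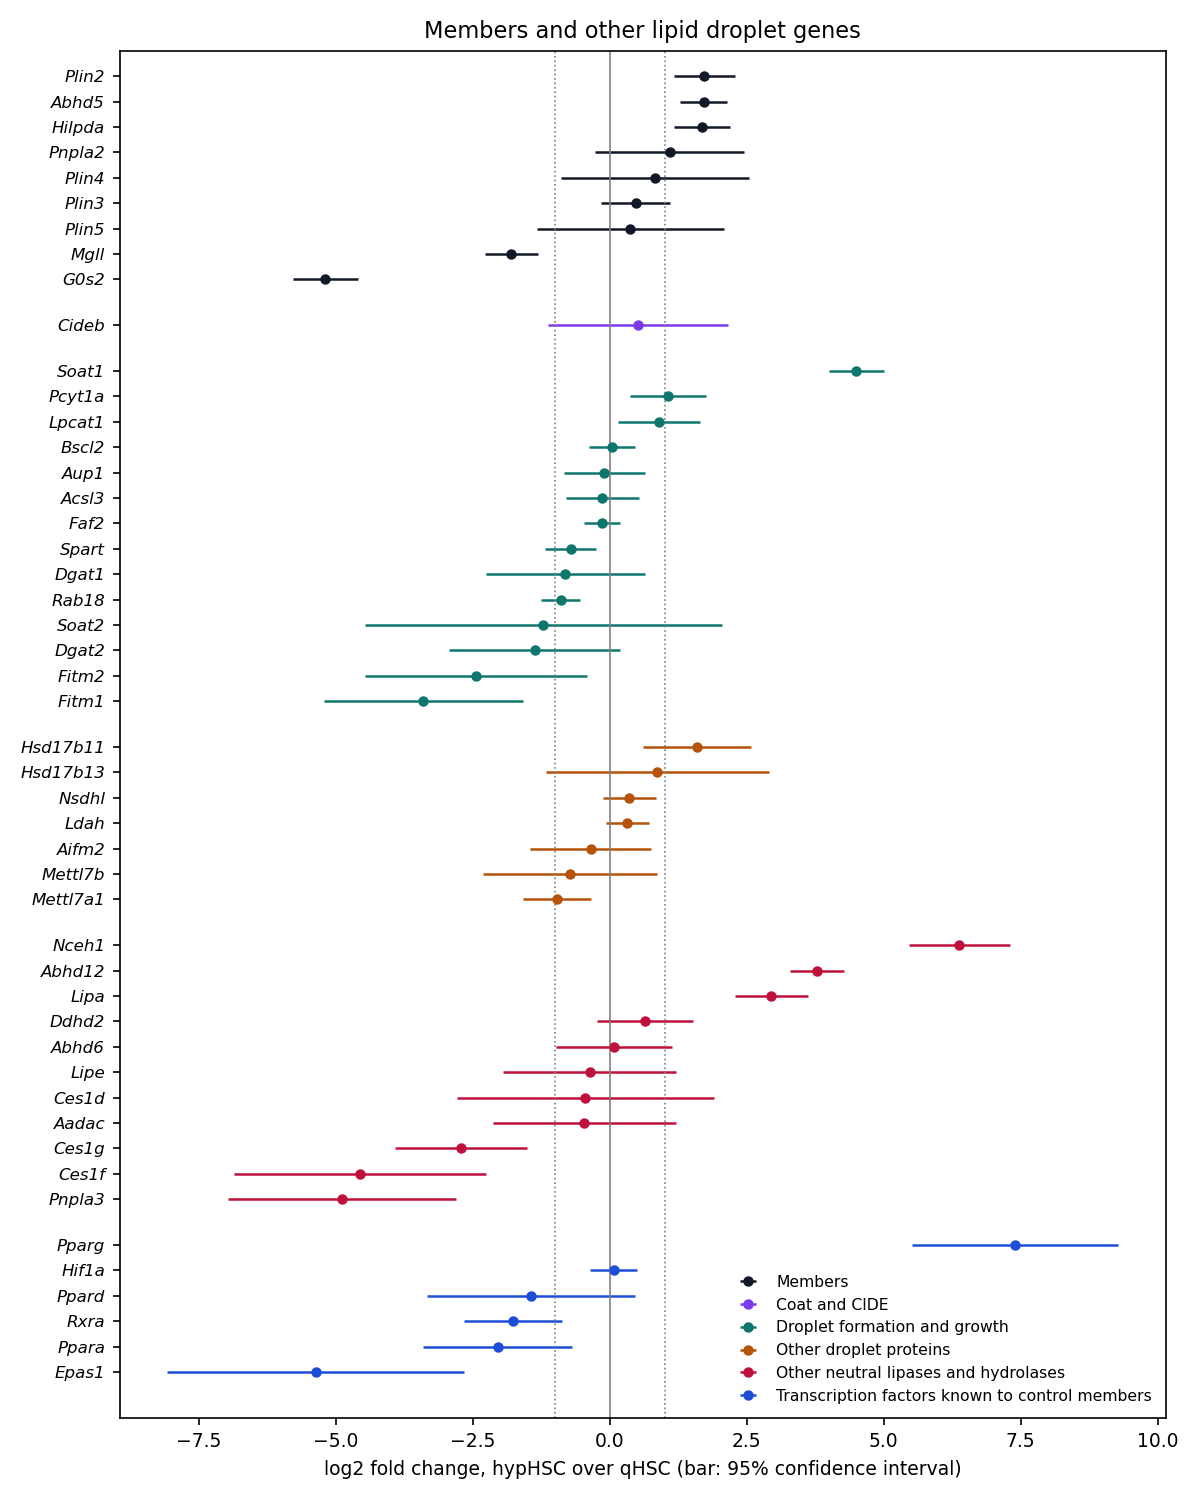
Log2 fold change (hypHSC over qHSC, 5 libraries each) of the 9 members tested and of 39 other lipid droplet genes, by role, with 95% confidence intervals as bars. Solid line, no change; dotted lines, the fold threshold of a DEG. The intervals of *Plin2*, *Abhd5* and *Hilpda* lie above 1 and those of *Mgll* and *G0s2* below -1.

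The bases before the start of *Plin2* and *Hilpda*, the members with the highest FPKM in hypHSCs, are shown because members of the PPAR family, which bind repeats of AGGTCA, and hypoxia-inducible factors are known to act on droplet genes. They are the most upstream part of the RefSeq promoter window, without any annotated exon, located in GRCm39 and written 5′ to 3′ on the strand of the gene. The letters AGGTCA were searched on both strands and are in capitals where found. The core letters bound by hypoxia-inducible factors, ACGTG and, as a variant of the first base, GCGTG, were searched in the same way. The *Plin2* stretch is chr4:86588460-86588546 on the reverse strand and the *Hilpda* stretch chr6:29272237-29272408 on the forward strand.
Plin2: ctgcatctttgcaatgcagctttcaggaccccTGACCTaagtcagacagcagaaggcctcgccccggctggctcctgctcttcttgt
Hilpda: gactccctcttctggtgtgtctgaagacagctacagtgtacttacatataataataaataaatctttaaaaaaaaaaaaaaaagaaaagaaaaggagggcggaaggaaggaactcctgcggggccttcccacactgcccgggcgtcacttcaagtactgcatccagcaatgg
The *Plin2* stretch of 87 bases held AGGTCA once, on the opposite strand (TGACCT), 218 bases before the RefSeq start, as did 5.02% of the same stretch of all 32851 RefSeq windows. The 172 bases of *Hilpda* held none of the 3 motifs, and the same stretch of all windows held AGGTCA in 9.79%, the hypoxia core in 10.7% and its variant in 19%. Such matches describe the letters only.

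The genes whose pattern over the 10 libraries was most like that of *Plin2* were taken by the smallest root mean square difference of log2 values, each centred on its own mean. They were *Gm12551*, the *Plin2* pseudogene (0.171), *Rnh1* (0.198), *Rinl* (0.201), *Hexa* (0.207) and *Stard5* (0.208), with a median of 1.32 over all genes tested. For *Pnpla2* they were *Man2b1* (0.258), *Tgfbr1* (0.266), *Pld2* (0.283), *Unc93b1* (0.285) and *1700017B05Rik* (0.288), with a median of 1.44. These 10 genes had log2 fold changes of 1.03 to 1.91, and the centred values compared include the difference between the 2 groups.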

How the data were processed

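The signal deposited by the authors is the normalised read count. They mapped paired reads of poly(A)-primed, amplified and non-stranded cDNA to mm39 using STAR, counted genes of Mouse FAST DB using featureCounts (Subread 1.5.0) and divided by the DESeq2 size factor of each library. Each library was prepared from sorted cells. The hypHSC preparations had been selected for the highest RNA integrity, and the qHSC preparations had also been selected. The paper gives a lower mean RNA integrity for the selected hypHSC preparations than for the qHSC ones, and describes this as no difference. Whole reads were recovered from each column by its factor, for 100% of values within 0.1, and were used for depth, FPKM, DESeq2 (1.42.0) and edgeR (4.0.16, quasi-likelihood). Of 62322 entries, the 25233 with a symbol were kept, and log2(normalised count + 1) was compared with limma (3.58.1, trend) in R 4.3.3, with all 10 libraries in 1 fit and p-values adjusted by Benjamini-Hochberg across the 14630 genes tested. A gene needed at least 10 counts in at least 5 libraries. In a simulation with 200 changed genes, limma called 48 of 48, 48 of 50, 47 of 50 and 50 of 50 tested genes with true log2 changes of -3, -1.5, 1.5 and 3, with 1 false call, among 14630 genes. The simulation gave both groups the same spread at a given level. In the data the coefficients of variation differed, as for *Pnpla2* (66.1% in hypHSCs, 30.3% in qHSCs) and, the other way, *Abhd5* (5.65% and 25.1%). These rates therefore need not hold for the data. Counts of 3 reads were taken as the floor, which covers counting error only. The replicates are separate preparations, and p-values measure the spread between them. The paper selected the hypHSC preparations among more samples than mice, so some of these libraries may share a mouse. The p-values then need not measure the spread between mice. No library pair of a group agreed within sampling noise (the lowest chi-square per gene of 20 pairs was 55.83). This check compares reads only and cannot show whether libraries share a mouse. Members, gene lists, marker lists and rules for naming genes were chosen with earlier results of these data known: all 10 members were named, of the other droplet genes any tested gene could be named, of each marker list the 3 most abundant genes, and for likeness the 5 nearest genes. *Spart* was found under its older symbol in the RefSeq table. GENCODE gave exons, and RefSeq gave promoter windows.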

Additional observations from a re-analysis of the deposited data

Results flagged for a closer look

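In 36 groups of 5 values (the 10 genes and 8 ratios in each group of libraries), the lowest or highest library was compared with the others by Dixon's ratio, with a critical value of 0.71, which chance passes in about 1 of 20 groups. It was passed by 3. *Plin4* in qHSC 2 was at 0.85 normalised counts, or 1 read, against 14.55 to 33.72 in the other qHSCs (Dixon's ratio 0.726), and the log2 ratio of *Plin4* over *Plin2* was accordingly -13.05 in qHSC 2 against -10.14 to -9.142 in the others (0.745). *Plin5* in hypHSC 1 was at 13.48 normalised counts against 55.9 to 75.62 in the other hypHSCs (0.821). These rest on 1 and 10 reads, and hypHSC 1 was also the library with the largest share of mitochondrial reads (12.8%). The low *Pnpla2* value of hypHSC 5 did not pass this criterion.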

How the results depend on the processing

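Of 448 recomputed values, 24 changed direction, crossed the threshold of their test or moved by over 1.5 times as a count. In addition, the untested log2 difference of *Cidec*, 1.35 with all libraries, was -0.048 with the 12-week hypHSCs alone, a move within the spread between its libraries. Scaling on *Hprt*, *Pgk1* and *Actb* gave 0 higher DEGs among the 10 genes in place of 3, and 1472 higher and 6990 lower DEGs among all genes in place of 2602 and 3177, with log2 fold changes of -0.46 for *Plin3*, -0.013 for *Plin4* and -0.52 for *Plin5*. With the same total per library the median of all genes was -0.54, and 2022 genes were higher and 4225 lower. Including entries without a symbol gave 3911 higher and 5380 lower DEGs among 24320 entries. DESeq2, edgeR and the fit without hypHSC 5 called 4 members higher in place of 3, the additional one being *Pnpla2*. Of all genes tested they called 2862, 2786 and 2716 higher, in place of 2602. With FPKM ratios and a pseudocount of 1 FPKM, the differences of *Plin4*, *Plin5* and *Cidec* over *Plin2* were -1.35, -1.43 and -1.20 and passed the threshold. Nearly all values of the 3 numerators lie below that pseudocount, which by construction leaves mostly the denominator. With 1 library left out, ratio differences ranged from -0.035 to 0.92 (*Hilpda* over *Pnpla2*), from -0.0076 to 0.93 (*Abhd5* over *Pnpla2*), from -1.99 to -0.80 (*Plin5* over *Plin2*) and from -1.10 to 0.43 (*Cidec* over *Plin2*), and log2 fold changes from -0.28 to 0.82 (*Plin5*). Leaving out qHSC 1 and 4 together, chosen after seeing the data for their macrophage markers, kept 3 members higher and 2 lower. Of all genes tested, 2391 were then higher and 2483 lower. With all annotated exons in place of the canonical transcript, chosen after seeing the data, *G0s2* came before *Plin3* in hypHSCs, and the FPKM ranges of *Plin2* and *Hilpda* overlapped in both groups, with *Plin2* lower by over 3 times in FPKM (225 in place of 734 in hypHSCs).

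The replicate numbers of the 2 groups did not pair the libraries (correlations of deviations 0.00815 to 0.129, 1 of 5 over 0.1). With the replicate number as a block, 3 members were higher and 2 lower, and 2557 and 3229 genes of all tested, and no call of a member changed.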
